A study of Mus musculus with 9 samples.

Results

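Kruppel-like factors (KLFs) are described here in Cdk8 knockout and parental mouse YAMC cells. The 10 KLF genes are Klf2, Klf3, Klf4, Klf5, Klf6, Klf7, Klf9, Klf10, Klf13 and Klf16, matched by gene symbol to the Entrez identifiers of an RNA-seq expression table that lists 28059 identifiers. All 10 were found, and no library had a member below 2.62 RPKM (reads per kilobase of gene and megaread of library), so all 10 passed the filter of 1 RPKM in at least 3 of the 9 libraries through every group. The study compared Cdk8 knockout clone 1, Cdk8 knockout clone 19 and the parental YAMC line, with 3 libraries each. Both clones are labelled Cdk8 -/- and were made by CRISPR. The parental cells are the unedited line they came from. All cells grew at 32 °C and were harvested in logarithmic growth. YAMC stands for young adult mouse colon, a line whose temperature-sensitive T antigen keeps it dividing at low temperature, while the labels place the cells in the small intestine. Each knockout group is 1 clone and none that kept Cdk8 is analysed here, so the loss of Cdk8 cannot be told apart from what else sets a clone apart from its line.

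KLFs are zinc finger transcription factors that bind CACCC boxes and GC-rich elements in promoters. Their zinc fingers are alike, and their other end differs: it recruits coactivators in some members, the corepressor Sin3A in others and the corepressor CtBP in Klf3. In the intestine, Klf5 is known from proliferating crypt cells and Klf4 from differentiated cells, and they often act in opposite ways. CDK8 is the kinase of the Mediator kinase module, which links transcription factors with RNA polymerase II.

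KLF proteins are known to act on promoters of KLF genes, so the 250 bases before the transcription start are shown for 3 members. Klf2 showed the largest change of the 10, Klf4 is the differentiation factor of the gut, and the Klf9 window matched neither KLF pattern searched. The sequences are from RefSeq (GRCm38.p6), which had a promoter for 7 members (Klf2, Klf3, Klf4, Klf6, Klf7, Klf9 and Klf13). In the Klf2 promoter (chr8:72318812-72319061, + strand) the capitals mark the CACCC-type and GC boxes and 1 match to a loose MEF2 pattern. In the Klf4 promoter (chr4:55532476-55532725, - strand) they mark CACCC-type and GC boxes. In the Klf9 promoter (chr19:23140976-23141225, + strand) they mark 1 match to a loose AP-1 pattern.
Klf2: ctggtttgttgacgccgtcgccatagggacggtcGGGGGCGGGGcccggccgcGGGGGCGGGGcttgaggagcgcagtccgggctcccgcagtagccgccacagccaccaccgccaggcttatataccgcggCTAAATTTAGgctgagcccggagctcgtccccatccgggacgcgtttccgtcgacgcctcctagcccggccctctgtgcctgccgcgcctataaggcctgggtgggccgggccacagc
Klf4: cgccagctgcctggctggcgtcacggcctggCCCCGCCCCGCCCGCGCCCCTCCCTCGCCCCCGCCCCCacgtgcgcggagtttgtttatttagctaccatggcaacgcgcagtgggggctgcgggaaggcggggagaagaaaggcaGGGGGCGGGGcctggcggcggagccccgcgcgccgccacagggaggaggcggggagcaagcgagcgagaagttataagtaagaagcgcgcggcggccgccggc
Klf9: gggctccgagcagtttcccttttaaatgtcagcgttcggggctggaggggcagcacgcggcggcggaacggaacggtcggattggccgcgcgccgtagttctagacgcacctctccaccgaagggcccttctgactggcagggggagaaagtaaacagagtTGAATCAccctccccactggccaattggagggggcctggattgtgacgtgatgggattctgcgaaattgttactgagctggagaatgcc

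Both strands were searched, and positions count backward from the base before the start. The CACCC-type box, written CCNCNCCC, was found in 6 of the 7 KLF promoters and in 46.2% of 32544 mouse promoters of the same length. The GC box, GGGCGG, which can overlap the CACCC-type box, was found in 6 of the 7 and in 33% of all. Klf4 held 9 CACCC-type and 4 GC matches, Klf2 held 4 and 2, and Klf9 had neither. In Klf2 every CACCC-type match overlapped a GC box, so the matches are not separate elements. The CACCC-type pattern does not require the letters CACCC. The Klf9 window holds those letters, and the Klf2 window holds their reverse complement, outside any match. The MEF2 site is the element through which the ERK5 kinase and MEF2 factors are known to drive Klf2. The pattern searched for it, CTA and TAG with 4 bases of any kind between them, is looser than the site itself. Among the 7 it was matched in Klf2 alone, at position -118 as CTAAATTTAG, and in 3.22% of all promoters. The pattern searched for the AP-1 site, TGANTCA, takes any base at its centre and is looser than the site itself. It was matched in Klf9 alone, at position -89 as TGAATCA, and in 6.73% of all. That match has A at its centre, where the AP-1 site has C or G. TATAAA and the CRE letters TGACGTCA matched none of the 7, against 12.3% and 1.55% of all promoters. GC content was 71.2% in the Klf2 promoter, 74% in Klf4 and 59.6% in Klf9, with a median of 52.4% over all promoters. All 7 KLF windows lay above that median, at 59.2% to 78.4%. The CACCC-type and GC box patterns consist mostly of C and G. The background was not matched for GC content, so these shares do not show enrichment. A match of letters is a description of the window and not a measured binding site.

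Several facts of the whole series bear on these values. The depth was estimated from the steps in low values as 23.1 to 32.4 megareads in clone 1, 24.6 to 33.1 in clone 19 and 27.9 to 43.7 in parental cells. Cdk8 RNA averaged 10.98 ± 0.658 RPKM in clone 1, 10.4 ± 0.157 in clone 19 and 17.6 ± 0.125 in parental cells (SD, n = 3 each), with log2 changes of -0.66 and -0.74 (adjusted p = 7.6e-08 and 3.5e-08, limma), so its RNA was lower but not lost, and values per gene do not show which part was edited. Markers of gut epithelium were mostly absent: of 20 listed, 3 reached a mean of 1 RPKM in clone 1, 4 in clone 19 and 3 in parental cells. Cdx2 was listed at 0 in all libraries and Epcam averaged 0.0934, 0.161 and 0.0212 RPKM. All 8 mesothelial markers reached 1 RPKM in each group, as did 7, 9 and 9 of 10 mesenchymal markers, so the cells are called YAMC cells and no cell type. The mesothelial markers summed to 1892 to 1937 RPKM in clone 1, 1967 to 1979.7 in clone 19 and 1069.5 to 1071 in parental cells. Upk3b and Upk1b carried most of that sum, and 6 of the 8 were called higher in both clones, while Msln (-0.43 and -0.14) and Krt7 (-2.11 and -0.56) were called lower in both. The epithelial ones summed to 986 to 1037, 969.7 to 976 and 614 to 632 RPKM, nearly all of it from the keratin genes Krt8, Krt18 and Krt19. The mesenchymal ones summed to 2016 to 2063, 1770.3 to 1839 and 2079 to 2142 RPKM. These marker lists differed between the groups alongside the KLF genes, and their part in the KLF changes was not tested. In bulk RNA, fewer cells of a type and less RNA per cell cannot be told apart.

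The 10 genes differed widely in level. Klf6, a widely expressed activator, was the most abundant in every group, at 54.03 ± 0.52 RPKM in clone 1, 50.9 ± 0.666 in clone 19 and 50.8 ± 0.727 in parental cells (SD, n = 3 each). Klf5 was the least abundant in every group, at 3.63 ± 0.226, 3.39 ± 0.343 and 2.84 ± 0.243 RPKM. In parental cells the order ran Klf6, Klf4, Klf3, Klf10, Klf16, Klf9, Klf2, Klf7, Klf13 and Klf5, and only Klf10 and Klf16 had overlapping libraries as neighbours in that order. In both clones Klf3 stood above Klf4, and Klf2 stood below Klf13, next to Klf7. In clone 1 the libraries of Klf9 and Klf16, Klf16 and Klf10, Klf13 and Klf2, and Klf2 and Klf7 overlapped. In clone 19 those of Klf9 and Klf16 and of Klf2 and Klf7 did. Summed, the 10 genes gave 176 to 181 RPKM in clone 1, 179 to 184 in clone 19 and 198 to 199 in parental cells. Klf3, Klf4 and Klf6 together made up 63.6% to 64.2%, 63.5% to 63.8% and 61.3% to 61.5% of that sum.

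**Figure D1:**
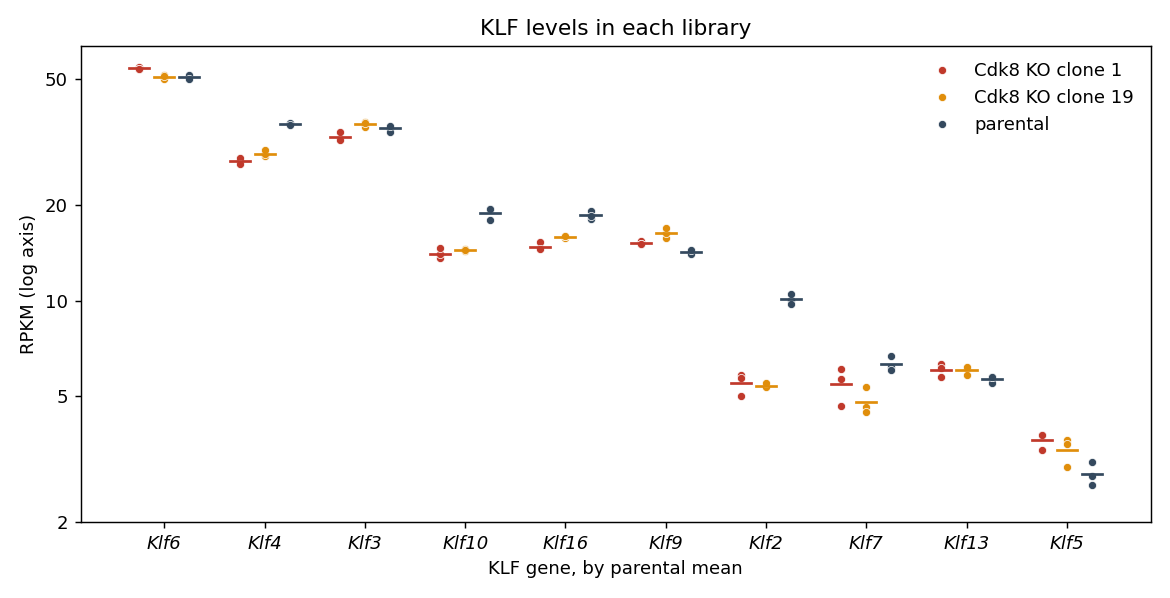
Level of each KLF gene in RPKM on a log axis, with 1 point per library and a line at the mean of Cdk8 knockout clone 1, Cdk8 knockout clone 19 and parental cells (3 libraries each), ordered by the parental mean. Klf2, Klf4, Klf10 and Klf16 lay lower in all 6 knockout libraries than in the 3 parental ones, and Klf6 was highest throughout at 49.95 to 54.6 RPKM. Of all tested genes, 33.7% lay lower in every clone 1 library and 34.8% in every clone 19 library.

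Most KLF genes changed, as most genes did. In clone 1, 3 of the 10 were called higher than parental and 5 lower at an adjusted p under 0.05 (limma), so 8 were called, where 72.4% of the 12568 tested genes were (39.8% higher and 32.6% lower). In clone 19, 2 were called higher and 5 lower, a total of 7, where 69.0% of all tested genes were called (36.7% higher and 32.3% lower). These shares of called members are close to the background, so a call alone says little of a KLF gene. Called the same way in both clones were Klf5 and Klf9, higher, and Klf2, Klf4, Klf10 and Klf16, lower, where 30.7% and 25.8% of all tested genes were. Both comparisons use the same 3 parental libraries. The median change of the 10 was -0.15 in clone 1 and -0.11 in clone 19 on the log2(RPKM + 0.5) scale, against 0.035 and 0.02 over all tested genes. In clone 1 the split was 2 higher and 6 lower with median-ratio scaling, and 1 higher and 5 lower with quantile normalization.

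Counted by libraries, 3 members were higher than parental cells in all clone 1 libraries (Klf5, Klf6 and Klf9) and 5 were lower in all of them (Klf2, Klf3, Klf4, Klf10 and Klf16), against 41.4% and 33.7% of all tested genes. In clone 19, 2 were higher throughout (Klf9 and Klf13) and 5 lower (Klf2, Klf4, Klf7, Klf10 and Klf16), against 38.7% and 34.8%. The genes around Klf4 and Klf16 were mostly lower and those around Klf9 mostly higher in both clones, while the genes around Klf2, Klf3 and Klf13 had median changes of -0.01 to 0.08. Each gene was therefore also set against the 50 tested genes nearest to it. With their shift subtracted in every library, 8 members were called in clone 1 and 5 in clone 19, against 66.3% and 63.2% of all tested genes. The direction of Klf16 in both clones and of Klf9 in clone 1 turned under that subtraction. So did that of Klf6 in clone 19, from 0.00191 to -0.03, called in neither case.

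**Figure D2:**
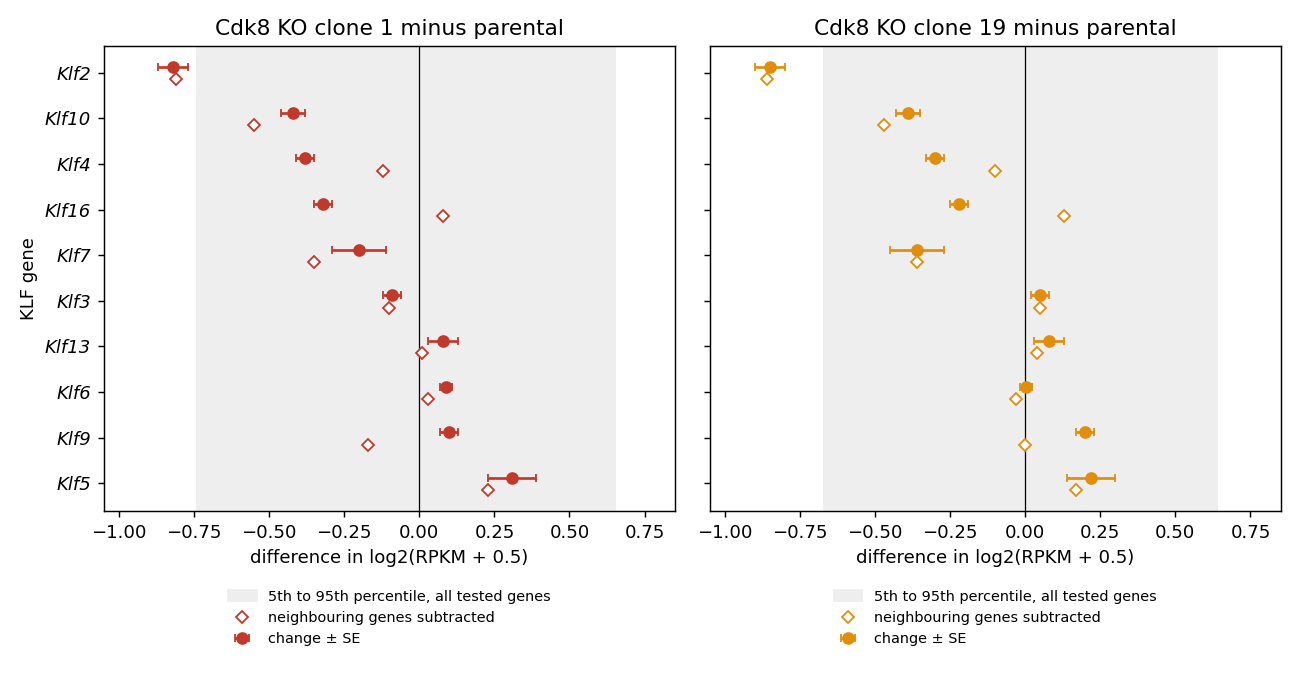
Difference in log2(RPKM + 0.5) between Cdk8 knockout clone 1 (left) or clone 19 (right) and parental cells for each KLF gene, as filled points with standard errors (3 libraries against 3). Open diamonds show the difference after the shift of the 50 nearest genes was subtracted, and the grey band holds 5% to 95% of all tested genes. Klf2, at -0.82 and -0.85, is the only member outside the band. Klf16 in both clones, Klf9 in clone 1 and Klf6 in clone 19 (0.00191 to -0.03) cross 0 when their neighbours are subtracted.

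Klf2, a factor known for holding endothelial cells and T cells in quiescence, showed the largest change of the 10 genes. It measured 5.81, 5.68 and 5.02 RPKM in clone 1, 5.38, 5.33 and 5.48 RPKM in clone 19, against 10.04, 10.5 and 9.77 RPKM in parental cells. All 6 knockout libraries lay well below all 3 parental ones, and the clones overlapped each other. The change was -0.82 ± 0.05 in clone 1 and -0.85 ± 0.05 in clone 19 (SE, n = 3 against 3, adjusted p = 1.1e-07 and 9.9e-08, limma). In size it stood at the 92.9 and 93.9 percentiles of the tested genes. Of all tested genes, 9.57% in clone 1 and 8.09% in clone 19 were called lower by at least 0.5, and Klf2 was the only KLF gene among them. Between the clones its difference was -0.02 (adjusted p = 0.75, limma). The genes around Klf2 on chromosome 8 did not share its shift: the median change of the 50 nearest tested genes was -0.01 and 0.01, and 2 of them in clone 1 and 0 in clone 19 fell below Klf2. The fall was called under all 20 alternatives in each clone, at -0.87 to -0.76 and -0.89 to -0.80. Klf2 is a short transcript, with an estimated 248 reads in its shallowest library, a counting error of 6.35%.

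Klf4 is an activator and repressor known for cell cycle arrest and the goblet cell fate. It fell to 27.4, 28.2 and 27.01 RPKM in clone 1 and to 28.6, 28.9 and 29.8 RPKM in clone 19, against 36.04, 36.3 and 35.7 RPKM in parental cells. No clone library reached a parental one. The change was -0.38 ± 0.03 and -0.30 ± 0.03 (SE, adjusted p = 1.4e-07 and 1.1e-06, limma). The genes around it on chromosome 4 fell too, by medians of -0.27 and -0.20, with 35 and 32 of 50 called lower. With their shift subtracted in each library, Klf4 was still called lower, but by -0.12 and -0.10 (adjusted p = 0.0014 and 0.0042, limma).

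Klf5, the crypt factor that often opposes Klf4, went the other way. It measured 3.76, 3.76 and 3.37 RPKM in clone 1, 2.996, 3.64 and 3.52 RPKM in clone 19, against 3.10, 2.79 and 2.62 RPKM in parental cells. All clone 1 libraries lay above the parental ones, and clone 19 replicate 1 lay among them. The change was 0.31 ± 0.08 in clone 1 and 0.22 ± 0.08 in clone 19 (SE, adjusted p = 0.0044 and 0.028, limma). The clone 19 call was lost when clone 19 replicate 2 (adjusted p = 0.105), clone 19 replicate 3 (0.0858), parental replicate 2 (0.0704) or parental replicate 3 (0.105) was left out. It ended as well with no filter on low values (0.064) and with neighbouring genes subtracted (0.085).

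Within each library, the level of Klf4 was 7.29 to 8.02 times that of Klf5 in clone 1 and 7.93 to 9.55 times in clone 19, against 11.6 to 13.6 times in parental cells. The ratio is per length of the gene models, and no knockout library reached the parental range. Klf4 was called lower and Klf5 higher from these same values, so this separation is not a further result. Klf2 stood at 0.0934 to 0.106 of Klf6 in clone 1, 0.104 to 0.107 in clone 19 and 0.196 to 0.205 in parental cells. Klf10 stood at 0.249 to 0.271, 0.279 to 0.289 and 0.351 to 0.389 of Klf6. A ratio alone shows unequal change and does not say which gene moved. In clone 1 and clone 19, Klf6 changed by 0.09 and 0.00191, Klf2 by -0.82 and -0.85, and Klf10 by -0.42 and -0.39. The lower ratios to Klf6 thus came mostly from Klf2 and Klf10.

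**Figure D3:**
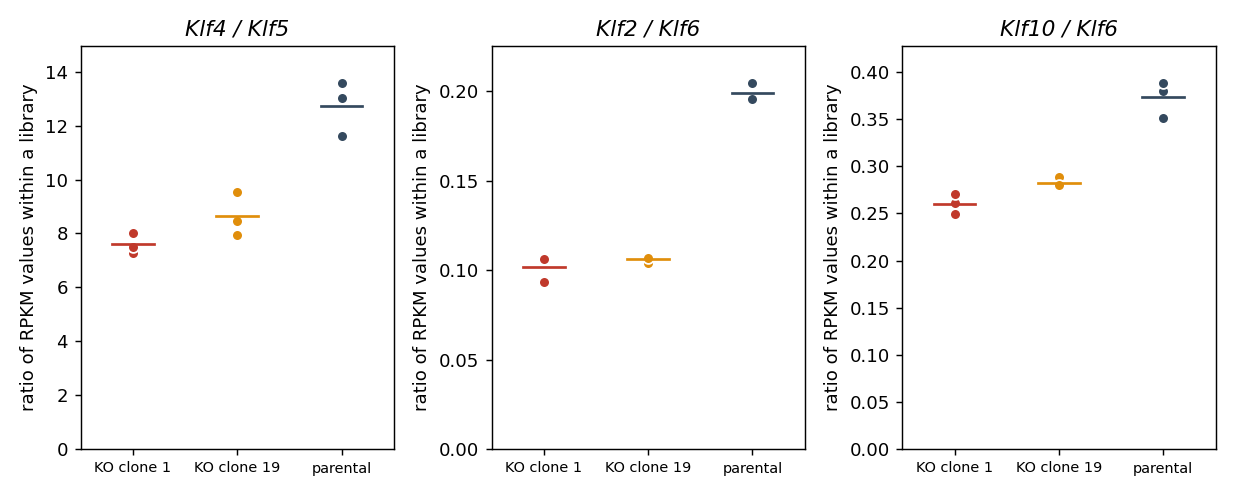
Ratios of RPKM between KLF genes within each library of Cdk8 knockout clone 1, clone 19 and parental cells, with 1 point per library and a line at the mean. In all 3 ratios the 6 knockout libraries lie below the 3 parental ones, and for Klf4 over Klf5 they span 7.29 to 9.55 against 11.6 to 13.6. The ratios restate the changes of the single genes.

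Klf6 and Klf7 are close relatives among the activators. Klf6 measured 54.6, 53.6 and 53.8 RPKM in clone 1, 50.1, 51.3 and 51.2 RPKM in clone 19, against 51.1, 51.3 and 49.95 RPKM in parental cells. Clone 1 lay above the other groups, and clone 19 overlapped the parental libraries. In clone 1 it rose by 0.09 ± 0.02 (SE, adjusted p = 0.0023, limma), and in clone 19 the difference was 0.00191 (adjusted p = 0.94, limma). The clone 1 call ended with quantile normalization (0.02, adjusted p = 0.369) and with neighbouring genes subtracted (0.03, adjusted p = 0.17). In clone 19 quantile normalization turned the difference to -0.05 (adjusted p = 0.0352, limma).

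Klf7, known from developing neurons, measured 6.08, 5.65 and 4.64 RPKM in clone 1, 4.61, 5.35 and 4.44 RPKM in clone 19, against 6.19, 6.69 and 6.03 RPKM in parental cells. Clone 19 lay below parental cells in every library, while clone 1 spread over 4.64 to 6.08 RPKM and overlapped both. It fell in clone 19 (-0.36 ± 0.09, SE, adjusted p = 0.0043, limma). In clone 1 the value was -0.20 ± 0.09 (adjusted p = 0.071, limma), which was called with median-ratio scaling (-0.23, adjusted p = 0.0405), without clone 1 replicate 1 (-0.27, 0.0208), with array quality weights (-0.25, 0.0251), with a replicate block (-0.20, 0.0264) and with neighbouring genes subtracted (-0.35, 0.00603). Without clone 1 replicate 3, the lowest library of that clone, the value was -0.10 (adjusted p = 0.293, limma).

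Among the members that recruit Sin3A, Klf10 and Klf16 fell and Klf9 rose. Klf10 is induced by TGF-beta and estrogen and is known as an inhibitor of growth. It measured 13.6, 13.98 and 14.6 RPKM in clone 1, 14.5, 14.3 and 14.4 RPKM in clone 19, against 19.4, 17.996 and 19.4 RPKM in parental cells. The knockout libraries lay apart from the parental ones and overlapped each other. The change was -0.42 ± 0.04 and -0.39 ± 0.04 (SE, adjusted p = 1.6e-06 and 3.6e-06, limma), at the 75.4 and 75.5 percentiles of all tested genes in size. The genes around it on chromosome 15 had median changes of 0.10 in both clones, and with their shift subtracted the Klf10 change was -0.55 and -0.47.

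Klf16, a repressor first described in brain, measured 14.6, 15.3 and 14.5 RPKM in clone 1, 15.7, 15.995 and 15.96 RPKM in clone 19, against 18.1, 19.1 and 18.5 RPKM in parental cells. The 3 groups did not overlap. It was called lower in both clones (-0.32 ± 0.03 and -0.22 ± 0.03, SE, adjusted p = 3.3e-06 and 8e-05, limma). Its neighbours on chromosome 10 fell more than it did, by medians of -0.38 and -0.35, with 47 and 44 of 50 called lower. With their shift subtracted, Klf16 was called higher in both clones, by 0.08 and 0.13 (adjusted p = 0.033 and 0.0031, limma).

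Klf9, which is induced by glucocorticoid and thyroid hormone and follows the circadian clock, measured 15.4, 15.1 and 15.1 RPKM in clone 1, 15.7, 16.3 and 16.97 RPKM in clone 19, against 14.2, 14.04 and 14.4 RPKM in parental cells. The groups did not overlap, and clone 19 was highest. It was called higher by 0.10 ± 0.03 in clone 1 and 0.20 ± 0.03 in clone 19 (SE, adjusted p = 0.018 and 0.00022, limma). Its neighbours on chromosome 19 rose by medians of 0.29 and 0.17, with 34 and 30 of 50 called higher. With them subtracted, the clone 1 call turned to lower (-0.17, adjusted p = 0.00058, limma) and the clone 19 difference was 0.000394 (adjusted p = 0.99, limma). The clone 1 call also ended with median-ratio scaling (adjusted p = 0.0934), with quantile normalization (0.0617), without clone 1 replicate 1 (0.0525) and without parental replicate 2 (0.0556).

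Klf13, a regulator of the chemokine gene Ccl5 in T cells, measured 6.30, 6.12 and 5.73 RPKM in clone 1, 6.14, 6.16 and 5.83 RPKM in clone 19, against 5.51, 5.76 and 5.76 RPKM in parental cells. Clone 1 overlapped the parental libraries and clone 19 lay just above them. The difference was 0.08 ± 0.05 in each clone (SE, adjusted p = 0.12 and 0.13, limma), and it was called in clone 1 without clone 1 replicate 3 (0.12, adjusted p = 0.0449).

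Klf3, the CtBP-recruiting repressor of fat and blood cell genes, measured 32.3, 34.1 and 32.1 RPKM in clone 1, 35.4, 36.5 and 36.3 RPKM in clone 19, against 35.1, 34.1 and 35.5 RPKM in parental cells. Clone 1 lay below the parental libraries, with replicate 2 just under the lowest of them, and clone 19 overlapped the parental range. In clone 1 the difference was -0.09 ± 0.03 (SE, adjusted p = 0.017, limma), and in clone 19 it was 0.05 ± 0.03 (adjusted p = 0.17, limma). The clone 1 call was lost when clone 1 replicate 1 (adjusted p = 0.0544), clone 1 replicate 3 (0.0652), parental replicate 1 (0.0504) or parental replicate 3 (0.0646) was left out. Klf3, Klf7, Klf9, Klf10 and Klf13 overlap other RefSeq genes, mostly predicted transcripts and microRNAs. Whether the counting used strand is not given in the sources used here, so reads of such overlapping genes cannot be told apart.

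**Figure D4:**
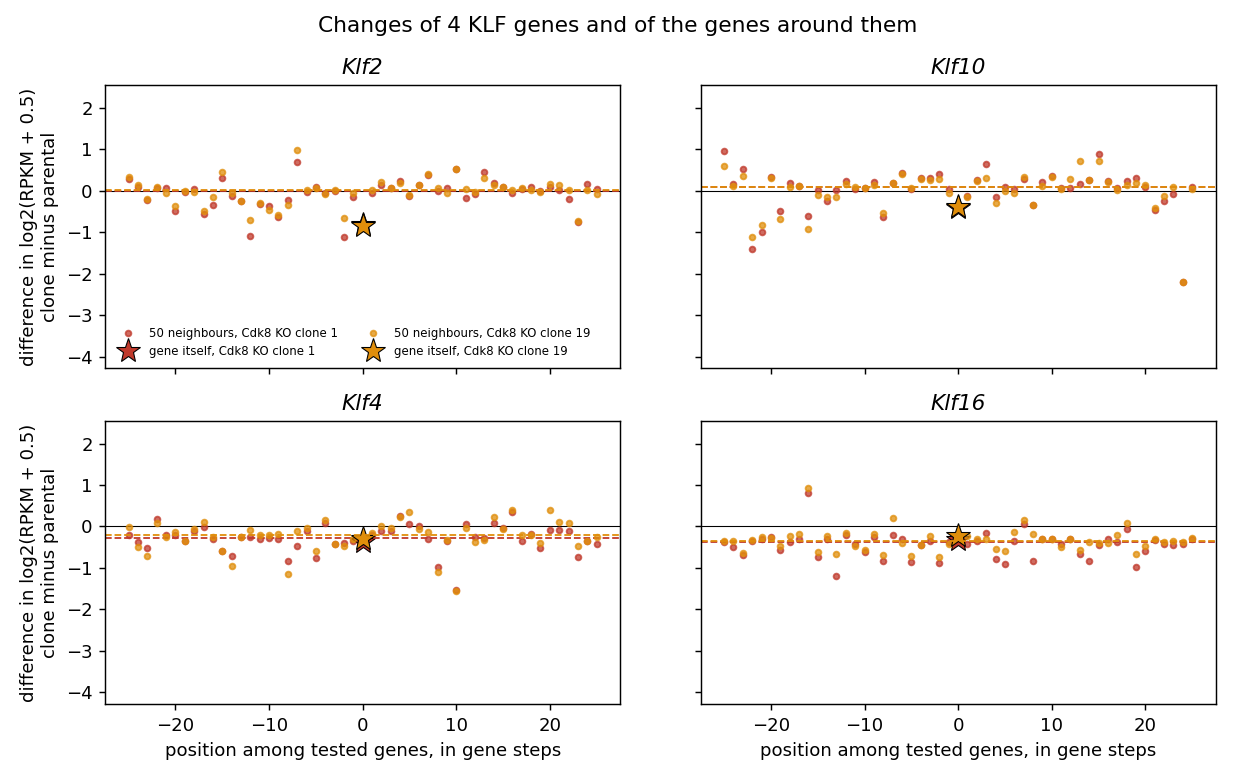
Differences in log2(RPKM + 0.5) of Klf2, Klf10, Klf4 and Klf16 (stars) and of the 50 nearest tested genes (dots) by position in gene steps, for Cdk8 knockout clone 1 and clone 19 minus parental cells. Dashed lines mark the neighbours' medians. Klf2 and Klf10 lie below theirs (-0.01 and 0.01 for Klf2, 0.10 and 0.10 for Klf10), whereas Klf4 and Klf16 lie within stretches whose medians are themselves below 0.

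The clones differed from each other in 5 members. Klf3 (0.13, adjusted p = 0.0034), Klf4 (0.08, 0.027), Klf9 (0.10, 0.027) and Klf16 (0.10, 0.022) were higher in clone 19 than in clone 1, and Klf6 was lower (-0.09, 0.006; all limma). Over all tested genes 43.0% were called between the clones, 18.5% higher and 24.5% lower in clone 19. These 5 were also the members whose libraries did not overlap between the clones, 4 higher and 1 lower, where 22.3% and 29.2% of all tested genes were. Those of Klf3 and Klf6 were called under all 20 alternatives, at 0.12 to 0.16 and -0.09 to -0.07, and those of Klf4, Klf9 and Klf16 under 15 of 20 each. With neighbouring genes subtracted, Klf4 (0.02, adjusted p = 0.643) and Klf16 (0.05, adjusted p = 0.255) were no longer called, and 3 members were, against 33.0% of all tested genes. The count of 5 also rested on single libraries. It was 2 without clone 19 replicate 3, and 3 without clone 1 replicate 1 or clone 19 replicate 2. Without clone 1 replicate 3 it was 3 as well, with 1 member higher and 2 lower, Klf7 being called lower there (-0.27, adjusted p = 0.0223, limma).

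Of the 7 other KLF genes, Klf11 alone passed the filter. Klf11, a TGF-beta-induced relative of Klf10, measured 1.77, 1.81 and 1.88 RPKM in clone 1, 2.33, 2.49 and 2.64 RPKM in clone 19, against 2.60, 2.67 and 2.49 RPKM in parental cells. Clone 1 lay below the other groups, and clone 19 overlapped parental cells. It fell in clone 1 (-0.41, adjusted p = 7.5e-05, limma) and had a difference of -0.05 in clone 19 (adjusted p = 0.49, limma). With neighbouring genes subtracted it was called lower in both, by -0.49 and -0.14 (adjusted p = 1.5e-05 and 0.042, limma). The difference between the clones was itself called (0.36, adjusted p = 0.00066, limma). Klf1, Klf8, Klf12 and Klf15 stayed below 0.2 RPKM in every library, Klf14 was listed at 0 throughout, and Klf17 was listed at 0 in all but clone 1 replicate 3 (0.00884 RPKM). These genes lay below the filter and were not tested. The erythroid factor Klf1 averaged 0.0367, 0.0723 and 0.157 RPKM in clone 1, clone 19 and parental cells. In the same order Klf15 averaged 0.0107, 0.0137 and 0.148, Klf12 0.107, 0.126 and 0.068, and Klf8 0.0814, 0.0551 and 0.0669 RPKM.

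SP factors share the KLF type of zinc fingers and bind GC boxes. Of 9 listed, 4 were tested. In clone 1, Sp2 (-0.12, adjusted p = 0.007), Sp3 (-0.08, 0.019) and Sp4 (-0.16, 0.037) fell and Sp1 was not called (-0.03, 0.53; limma). In clone 19, Sp2 fell (-0.15, adjusted p = 0.003) and Sp1 (-0.09, 0.091), Sp3 (0.01, 0.69) and Sp4 (-0.08, 0.31) were not called. Sp3 had the highest level of these, at 41.7 ± 1.43, 44.5 ± 0.327 and 44.1 ± 0.762 RPKM in clone 1, clone 19 and parental cells (SD, n = 3 each). Their median change was -0.10 and -0.08. Of all tested genes 32.6% fell in clone 1 and 32.3% in clone 19. With neighbouring genes subtracted, Sp3 turned to a rise of 0.21 in clone 1 and 0.28 in clone 19 (adjusted p = 2.8e-05 and 2.9e-06, limma), and Sp2 (-0.20 and -0.16) and Sp4 (-0.23 and -0.20) were called lower in both.

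The partners of KLF proteins went both ways. Of 14 corepressors and coactivators tested, clone 1 had 4 higher and 6 lower and clone 19 had 2 higher and 5 lower, with medians of 0.04 and -0.01. Over all tested genes 72.4% were called in clone 1 and 69.0% in clone 19, so 10 and 7 of 14 called are near or below the background. Fhl3, a LIM protein that binds Klf3, showed the largest of these changes, at 5.18 ± 0.542 RPKM in clone 1, 6.12 ± 0.629 in clone 19 and 10.9 ± 0.222 in parental cells (SD, n = 3 each; -1.01 and -0.79, adjusted p = 4.7e-07 and 4e-06, limma). Sin3a, the corepressor of the Klf9, Klf10, Klf13 and Klf16 group, fell as well (-0.38 and -0.54, adjusted p = 6e-07 and 4.5e-08, limma), as did Wdr5, a subunit of histone methyltransferase complexes (-0.45 and -0.42). Crebbp, the acetyltransferase CBP, rose (0.56 and 0.49, adjusted p = 2e-05 and 6.6e-05, limma). With neighbouring genes subtracted the changes were smaller for Wdr5 (-0.15 and -0.11), Sin3a (-0.28 and -0.29) and Crebbp (0.36 and 0.26), and all were still called.

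Of 9 enzymes known to act on the stability of KLF proteins, clone 1 had 4 higher and 2 lower and clone 19 had 2 higher and 4 lower, with medians of 0.08 and 0.03. The 6 of 9 called in each clone are close to the 72.4% and 69.0% of all tested genes. Smurf1, a ubiquitin ligase reported to act on Klf2, fell to 11.7 ± 0.239 RPKM in clone 1 and 10.3 ± 0.454 in clone 19, against 23.4 ± 0.253 in parental cells (SD, n = 3 each; -0.97 and -1.15, adjusted p = 1.2e-09 and 3.8e-10, limma). Wwp1, a ubiquitin ligase of Klf2 and Klf5, fell too (-0.41 and -0.39), while Fbxw7 (0.32 and 0.19) and Vhl (0.19 and 0.22) rose. The calls of Fbxw7 (0.03 and -0.10) and Vhl (0.12 and 0.14) ended with neighbouring genes subtracted. These are RNA levels, and no KLF protein was measured.

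Among the genes of the MEK5-ERK5-MEF2 route to Klf2, 6 of 8 were tested. In clone 1, 5 rose and 1 was not called, and in clone 19, 4 rose, 1 fell and 1 was not called, with medians of 0.22 and 0.12. The background of genes called higher was 39.8% and 36.7%, and that of genes called lower 32.6% and 32.3%. Mef2a measured 13.1 ± 0.720 RPKM in clone 1, 12.6 ± 0.625 in clone 19 and 10.6 ± 0.297 in parental cells (SD, n = 3 each; 0.29 and 0.24, adjusted p = 0.00021 and 0.001, limma). Mef2d (0.22 and 0.33), Map3k3 (0.26 and 0.12) and Mapk7, which encodes ERK5 (0.09 and 0.12), were higher in both clones as well. With neighbouring genes subtracted, Mef2d was no longer called (-0.01 and 0.07) and Map3k3 was not called in clone 19 (-0.01). Mapk7 was then called lower in clone 1 (-0.19) and not called in clone 19 (-0.04). Mef2c and Mef2b, the genes of this list below the filter, were not tested. Mef2c averaged 0.573, 0.317 and 0.0122 RPKM in clone 1, clone 19 and parental cells, and Mef2b 0.29, 0.275 and 0.327.

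For Klf10 and Klf11, TGF-beta is the best known inducer. Of its 9 listed ligands, receptors and SMAD genes, clone 1 had 7 higher and 2 not called, and clone 19 had 4 higher, 2 lower and 3 not called, with medians of 0.18 and 0.07. The share of all tested genes called higher was 39.8% in clone 1 and 36.7% in clone 19, and 32.3% were called lower in clone 19. The ligand Tgfb3 measured 22.97 ± 0.529 RPKM in clone 1, 21.1 ± 0.423 in clone 19 and 14.5 ± 0.338 in parental cells (SD, n = 3 each; 0.65 and 0.52, adjusted p = 7.6e-09 and 4.4e-08, limma). Tgfb2 (0.42 and 0.41), Tgfb1 (0.14 and 0.11) and the receptor Tgfbr2 (0.42 and 0.07) were called higher in both clones. Subtraction of neighbouring genes left 0.22 of the Tgfb2 change in clone 1 and ended the Tgfb1 call in clone 19 (0.08, adjusted p = 0.11, limma).

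Of 8 tested genes of the hormone and clock input to Klf9, clone 1 had 2 higher and 3 lower and clone 19 had 1 higher and 4 lower, with medians of -0.03 and -0.06. The 5 of 8 called in each clone do not exceed the background of 72.4% and 69.0%. Nr1d1, the clock repressor REV-ERB alpha, fell to 5.39 ± 0.111 RPKM in clone 1 and 5.26 ± 0.0261 in clone 19, against 8.09 ± 0.156 in parental cells (SD, n = 3 each; -0.55 and -0.58, adjusted p = 1.6e-07 and 1.1e-07, limma). Dbp, a clock output factor, fell by more on the log2 scale from a low level (-0.87 and -0.63), and Clock fell slightly (-0.10 and -0.29). Per1 rose in clone 1 (0.13, adjusted p = 0.031) and had 0.10 in clone 19 (adjusted p = 0.085, limma). With neighbouring genes subtracted, Per1 turned to -0.13 in clone 1 and -0.12 in clone 19 (adjusted p = 0.03 and 0.033, limma).

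Reported KLF target genes did not move one way. Of 34 listed, 33 were in the table and 21 were tested; 10 rose, 7 fell and 4 were not called in each clone, with medians of 0.09 and 0.08. Over all tested genes 39.8% and 36.7% rose and 32.6% and 32.3% fell in clone 1 and clone 19. Ccnd1, the cyclin D1 gene that Klf4 represses and Klf5 activates, fell to 69.8 ± 0.662 RPKM in clone 1 and 68.3 ± 0.760 in clone 19, against 130.4 ± 1.61 in parental cells (SD, n = 3 each; -0.90 and -0.93, adjusted p = 2.7e-11 in both, limma). Pdgfa, a growth factor gene activated by Klf5, rose (0.91 and 1.04, adjusted p = 3.1e-08 and 1.3e-08, limma). Ccl5 rose to 2.47 ± 0.458 and 2.64 ± 0.163 RPKM in clone 1 and clone 19, against 0.807 ± 0.257 in parental cells (1.19 and 1.28), and Nfatc1, a T cell and osteoclast factor, fell from a low level (-1.13 and -1.44). Below the filter and chosen after its values were seen, S1pr1, a receptor gene that Klf2 activates in T cells, had 0.0284, 0.0101 and 0.0210 RPKM in clone 1, 0.0450, 0.0198 and 0.0665 in clone 19, and 0.672, 0.619 and 0.509 in parental cells.

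**Figure D5:**
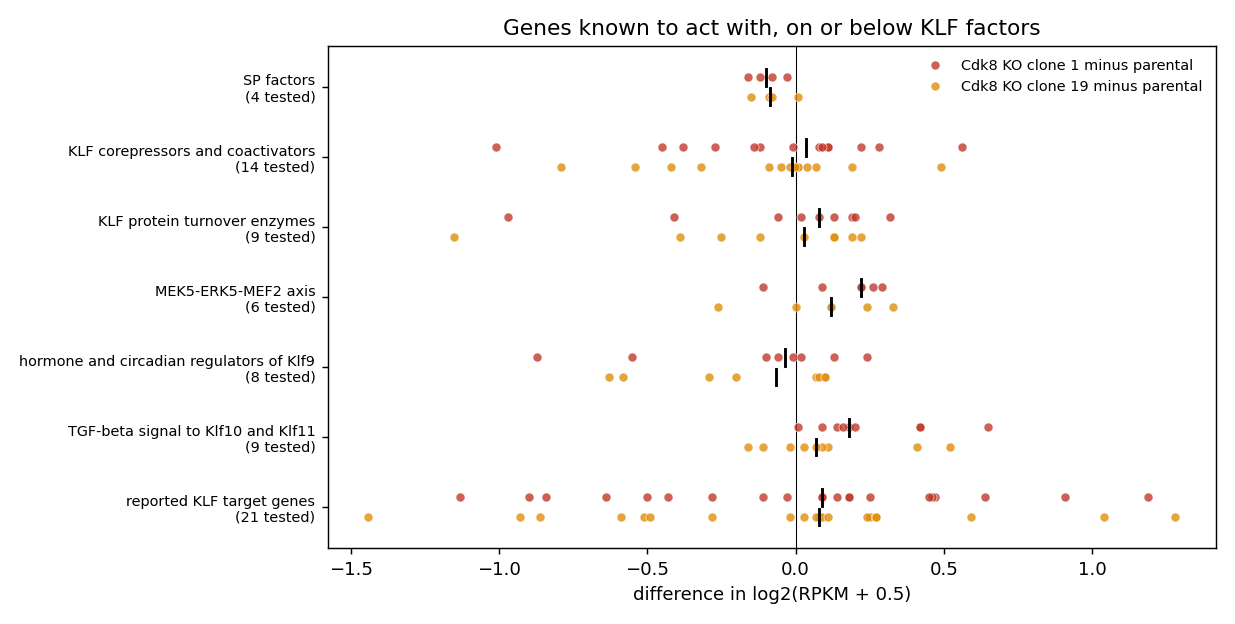
Differences in log2(RPKM + 0.5) of Cdk8 knockout clone 1 (upper points of each row) and clone 19 (lower points) minus parental cells for the tested genes of 7 lists, with a black bar at each median. In each clone 10 of 21 reported target genes rose and 7 fell, where 39.8% (clone 1) and 36.7% (clone 19) of all tested genes rose and 32.6% and 32.3% fell, and the medians of the 7 lists lie between -0.10 and 0.22.

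For the pattern most like that of Klf2, Pearson correlations of log2(RPKM + 0.5) were taken over the 9 libraries. Pcbp4, an RNA-binding protein gene, came first (r = 0.999), at 25.7 ± 1.49 RPKM in clone 1, 25.3 ± 0.533 in clone 19 and 39.9 ± 0.458 in parental cells. Abca7, a lipid transporter gene, came next (r = 0.997), at 5.05 ± 0.249, 4.98 ± 0.174 and 7.67 ± 0.191 RPKM (SD, n = 3 each). The 9 points fall into 3 groups that share clone and library, and 1118 tested genes had an r above 0.95 with Klf2, so the likeness is that of any gene lower in both clones by a like amount.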

How the data were processed

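RNA of 9 libraries was sequenced after TruSeq RNA preparation, per the labels' protocols. The authors deposited RPKM values for 28059 Entrez identifiers in 1 table. GSNAP, DESeq and the build NCBIM37 are named in the submitters' processing notes. The sources used here give no tool versions, annotation or counting rule. RPKM divides by gene length and library reads, so a change in RNA composition can shift all values of a library. Identifiers were named through RefSeq GRCm38 (24998) and GENCODE (16), and 3045 were unnamed. These tables served for names, gene order and promoters only.

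Differences were tested with limma 3.58.1 in R 4.3.3 with a mean-variance trend on log2(RPKM + 0.5), a scale that understates changes of low genes, over 12568 genes with at least 1 RPKM in at least 3 libraries. The model held the 3 group means and used all 9 libraries. Adjustment was by Benjamini-Hochberg within each contrast over all tested genes, calls were made below an adjusted p of 0.05, and adjusted p-values in the text come from this fit unless an alternative is named. The labels do not say whether replicates were separate cultures, so the p-values cover the spread of these libraries alone, which may be technical, and not the spread between clones. Depth was estimated from the steps that 1 read makes in low values, so no count test was run. Neighbour subtraction removed, in each library, the median by which the 50 tested genes nearest in gene order deviated. 11581 genes had such neighbours and the others kept their values. The fits were tested on simulated data with known changes.

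The members and lists were chosen with earlier results of these data known. All members and the other KLF genes are named. From each other list up to 4 tested genes were named by rule. Those with calls of like sign in both clones came first, ordered by the smaller of their 2 changes. Listed genes named outside this rule were Cdx2, Epcam, Msln, Upk1b, Krt7, Mef2b, Mef2c and S1pr1. The 20 alternatives were changed fits. They were pseudocounts of 0.1 and 1, no filter, a filter of 3 RPKM, 2 scalings, no trend and array weights. The others were only the groups compared, a replicate block, neighbour subtraction and each library left out. A 2-fold threshold was set on the main fit as well and is not among the 20.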

Additional observations from a re-analysis of the deposited data

Results flagged for a closer look

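For 5 members the change against parental cells differed between the clones by limma's contrast of clone 19 with clone 1: Klf3 by 0.13, Klf4 by 0.08, Klf6 by -0.09, Klf9 by 0.10 and Klf16 by 0.10 on the log2 scale. For Klf3 and Klf6 the clone 19 mean was nearer to the parental mean than the clone 1 mean was. Klf4 and Klf16 were lower in both clones, and less so in clone 19, while Klf9 was higher in both, and more so in clone 19. Over all tested genes 43.0% differed between the clones, so 5 of 10 members is near the background. Groups of 3 libraries are too small for a check of outlying libraries.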

How the results depend on the processing

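Klf2, Klf4, Klf7, Klf10 and Klf16 in clone 19, and Klf2, Klf4, Klf5, Klf10 and Klf16 in clone 1, were called under all 20 alternatives, although Klf16 turned from lower to higher with neighbouring genes subtracted (0.08 in clone 1 and 0.13 in clone 19). The same subtraction turned Klf9 in clone 1 to -0.17. The cause was not tested. Over the changes of the 10 members in the 3 comparisons under the 20 alternatives, 543 values kept direction and side of the threshold, 32 lost a call, 7 gained one and 18 changed sign.

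The other sign changes concern differences near 0. Klf6 in clone 19 was -0.02 with median-ratio scaling, -0.05 with quantile normalization, -0.03 with neighbours subtracted, -0.00391 without clone 19 replicate 2, -0.00311 without clone 19 replicate 3 and -0.01 without parental replicate 3. Between clone 19 and clone 1, Klf13 was 0.01 with median-ratio scaling and with quantile normalization, 0.02 with array weights, 0.03 with neighbours subtracted, and -0.04 to 0.03 with a library left out (above 0 without clone 1 replicate 1 or 2 or clone 19 replicate 3). Klf2 was 0.00477 with array weights and -0.08 to 0.01 with a library left out (above 0 without clone 1 replicate 1).

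The count of members called, 8 in clone 1 and 7 in clone 19, ran from 7 to 8 and from 6 to 7 with each library left out, and was 6 and 8 with quantile normalization. Between the clones it was 5, 3 with neighbours subtracted, 3 with only the groups compared, and 2 to 5 with a library left out: 3 without clone 1 replicate 1, clone 1 replicate 3 or clone 19 replicate 2, and 2 without clone 19 replicate 3. No member changed 2-fold, so the counts by limma at 2-fold were 0, 0 and 0, at an unadjusted p as well.

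Equal replicate numbers did not pair the libraries: their deviations correlated at -0.035 to 0.123. With a replicate block 9, 7 and 5 members were called, with Klf7 in clone 1 added (-0.20, adjusted p = 0.0264, limma), and no other call changed.

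Depth limits mainly Klf2 and Klf5, with an estimated 248 and 404 reads in their shallowest libraries and counting errors of 6.35% and 4.97%. Exon lengths behind these estimates are those of GENCODE and not the authors'.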
